A study of Arabidopsis thaliana with 8 samples.

Results

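Messenger RNA of unstressed Arabidopsis thaliana seedlings was compared between the mutant line prp43a and the wild type. The wild type was Col-0, and prp43a-1 (SALKseq_42682) carries a T-DNA insertion in the gene PRP43a, named by the study's title as a component of splicing disassembly. All seedlings were 7 days old and had grown at 22 °C, with 16 h of light and 8 h of dark, on MS medium (a mineral salt medium) with 1% sucrose. Each genotype gave 2 libraries, which the labels call biological replicates, and no seedling of these 4 libraries was treated. A single insertion line was measured, so an effect of the insertion cannot be told apart from any other difference that this line carries. Another 4 libraries, from seedlings of the same genotypes held at 38 °C for 16 h, entered through the shared estimate of the spread, through the filter that set which genes were tested, and where they are named. The genes described are those with at least 1 TPM (a gene's share of all transcripts, corrected for gene length and scaled to the same total in every library) in at least 2 of the 4 unstressed libraries. These were 18346 of the 27655 genes in the table and of the 19697 genes tested. Just inside that limit lay AT1G15150, with 1.03 and 1.00 TPM in wild type and 0.480 and 0.685 TPM in prp43a. Just outside lay AT2G36980, with 0.732 and 0.9999 TPM in wild type and 0.821 and 1.46 TPM in prp43a.

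In yeast, Prp43 is a helicase of the DEAH family that takes apart the spliceosome once an intron has been released, and it also acts in the maturation of ribosomal RNA. Its partners in spliceosome disassembly have plant homologs, STIPL1 and ILP1. Abscisic acid, the hormone of water deficit, acts through PYR/PYL receptors that inhibit phosphatases of type PP2C; this frees SnRK2 kinases, which activate ABF transcription factors, and these bind the sequence ACGTG in the promoters of protective genes such as those of dehydrins and other late embryogenesis abundant (LEA) proteins.

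The 4 libraries held 4476643 to 4783641 reads or read pairs as recovered from the TPM steps. A gene of 1.5 kb at 10 TPM then rested on 41.8 to 44.7 of them, and genes at a few TPM on far fewer. Across the 18346 genes, wild-type replicate 1 stood somewhat apart. It correlated with wild-type replicate 2 at r = 0.981 and with the prp43a libraries at r = 0.975 and 0.973, and 3.19% and 3.60% of genes differed at least 2-fold from those 2 libraries. Wild-type replicate 2 correlated with the prp43a libraries at r = 0.982 and 0.981, and the prp43a libraries with each other at r = 0.983 (r across genes on log2(TPM + 1), as a description). Differences below are log2 fold changes on the log2(TPM + 1) scale, prp43a minus wild type, which understate the change of low genes. They were tested with limma and called at an adjusted p below 0.05 over all 19697 genes. With 2 libraries a group no permutation test can pass 0.05, and these p-values rest on a spread shared across genes. Each gene's own spread was pooled over all groups, so groups in which a gene was barely detected tend to lower it.

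In prp43a 14 of 18346 genes fell (0.0763%) and 0 rose (0.0%); over all 19697 genes tested the same 14 passed (0.0711%). They were 5 LEA and dehydrin genes, the abscisic acid reporter LTI65, the proline synthesis gene P5CS1, the lipid transfer gene LTP3, the helicase locus AT3G62310 and 5 others. The median difference over all genes was 0.02, 92.3% of genes lay within 0.5 of 0, and the range from the 5th to the 95th percentile was -0.46 to 0.43. Log2 fold changes were above 0 for 9737 genes and below 0 for 8609. Later counts above or below 0 are to be read against these. At an unadjusted p below 0.05, 714 genes were lower (3.89%) and 995 were higher (5.42%). Both prp43a libraries lay above both wild-type libraries for 4118 genes (22.4%) and below both for 3354 genes (18.3%), and the counts given for gene groups below are to be read against these shares. By size alone the balance was the other way: 176 genes were at least 2-fold lower (0.959%) and 73 at least 2-fold higher (0.398%).

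**Figure D1:**
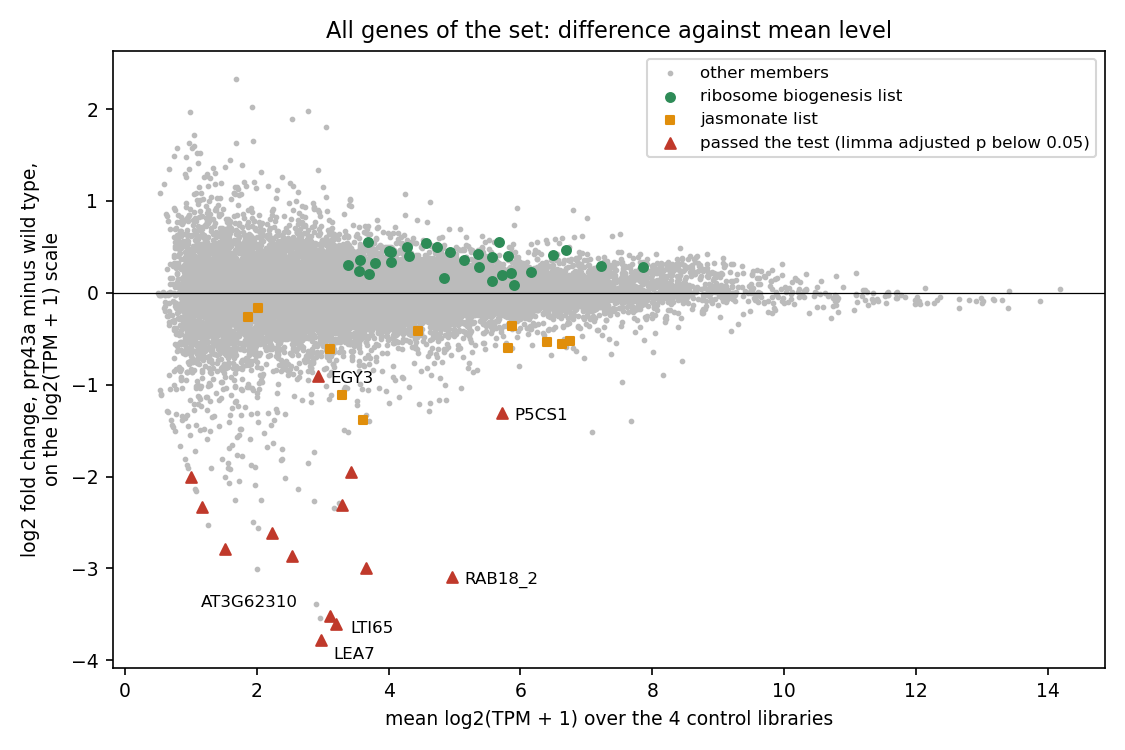
Each point is 1 of 18346 genes, with its mean log2(TPM + 1) over the 4 unstressed libraries on the x axis and the log2 fold change, prp43a minus wild type, on the y axis; green circles are the ribosome biogenesis list, orange squares the jasmonate list and red triangles the genes that passed the test. The 14 genes that passed the test all lie below 0, from -0.91 for EGY3 to -3.78 for LEA7.

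The helicase locus AT3G62310 was the gene with the smallest p-value. It had 26.7 and 29.8 TPM in the wild-type libraries and 1.68 and 1.44 TPM in the prp43a libraries. The groups were far apart and each pair of replicates lay close together, with a mean in wild type 18.1 times that in prp43a and the log2 fold change was -3.52 (SE 0.16; limma adjusted p = 2.31e-05). The labels give PRP43a no locus number, and AT3G62310, annotated as an RNA helicase on chr3:23057240-23060731 (minus strand, TAIR10.1), is the helicase that was low in the mutant libraries. None of the 10 nearest genes of the set on each side, from 23014127 to 23108694 on chromosome 3, passed the test, and their log2 fold changes ran from -0.47 to 0.28 (limma adjusted p of 0.511 or more). The convergent neighbour DUF7 overlaps the 3' end of AT3G62310 on the other strand and had 11.9 and 12.2 TPM in wild type and 15.1 and 14.4 TPM in prp43a, which did not pass the test (log2 difference 0.27, limma adjusted p = 0.78). The strand setting of the counting is not given, so reads from that overlap cannot be assigned.

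Of 14 helicases and disassembly partners, AT3G62310 was the 1 that fell, and 5 had a log2 fold change above 0 and 9 below, with a median of -0.05, or 0.0086 without prp43a replicate 1. AT2G47250, the second homolog of Prp43, had 34.7 and 32.1 TPM in wild type and 49.8 and 54.1 TPM in prp43a. Both mutant libraries lay above both wild-type libraries, and the log2 difference of 0.62 missed the threshold (SE 0.10, limma adjusted p = 0.077). Of 19 alternative settings it passed in 1, voom on recovered reads (0.63, limma adjusted p = 0.048), and the adjusted p ran up to 0.52 in the others. The partner gene STIPL1 had 6.68 and 6.64 TPM in wild type against 7.47 and 6.41 TPM in prp43a, and ILP1_2 had 6.56 and 10.3 against 7.12 and 8.66 TPM. For both partners the groups overlapped, and their log2 differences of 0.05 and -0.06 changed sign when single libraries were left out. The U5 helicase gene emb1507, with 35.1 and 36.5 TPM in wild type and 39.7 and 41.6 TPM in prp43a, was the next highest of the group (0.18, limma adjusted p = 0.65).

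LEA proteins and dehydrins protect drying cells, and theirs was the gene list with the most members that fell. Of 17 LEA and dehydrin genes in the set, 5 fell (0.0763% over all genes) and 0 rose. 14 had a log2 fold change below 0, and for 11 both prp43a libraries lay below both wild-type libraries (18.3% over all genes). The median was -0.38 (from -0.61 to -0.26 when 1 unstressed library was left out). The list was written with earlier results of these data known, so these counts and its rank among the lists are no test. A further 16 genes of that list were below the limit of 1 TPM in 2 libraries, 4 of them listed at 0 in all 4 libraries. LEA7, whose protein belongs to the LEA class, had 22.6 and 34.9 TPM in wild type and 0.743 and 1.59 TPM in prp43a. Both prp43a libraries lay far below both wild-type libraries, and the log2 fold change was -3.78 (SE 0.36, limma adjusted p = 0.0038). The LEA gene AT3G02480 stood at 26.1 and 45.9 TPM in wild type and 3.05 and 3.92 TPM in prp43a (-2.997, SE 0.30, limma adjusted p = 0.0053). LEA4-5 was the most even of them, with 14.3 and 15.1 TPM against 1.12 and 1.19 TPM (-2.87, SE 0.27, limma adjusted p = 0.0038). AT3G17520, a further LEA gene, had 8.17 and 13.7 TPM in wild type and 1.32 and 0.564 TPM in prp43a (-2.61, SE 0.35, limma adjusted p = 0.038).

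The dehydrin RAB18_2 (AT5G66400), a standard reporter of abscisic acid, was the most abundant in wild type of the LEA and dehydrin genes that fell. It had 79.5 and 102 TPM in wild type and 11.7 and 7.91 TPM in prp43a, a mean 9.24 times higher in wild type (log2 fold change -3.10, SE 0.22, limma adjusted p = 0.0006). LTI65, known too as RD29B and likewise induced by abscisic acid, had 28.1 and 34.7 TPM against 2.01 and 1.32 TPM (-3.61, SE 0.26, limma adjusted p = 0.0006). Neither gene's groups came near each other. Other genes of the list lay near 0. The abundant dehydrin gene AT1G54410 had 808 and 826 TPM in wild type and 833 and 752 TPM in prp43a (log2 difference -0.05, limma adjusted p = 0.94), and SAG21, a LEA gene, had 197 and 168 against 188 and 208 TPM (0.12, limma adjusted p = 0.91). For both of them the groups overlapped. These 2 genes were named after their values were seen, to show the members of the list that lay near 0.

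**Figure D2:**
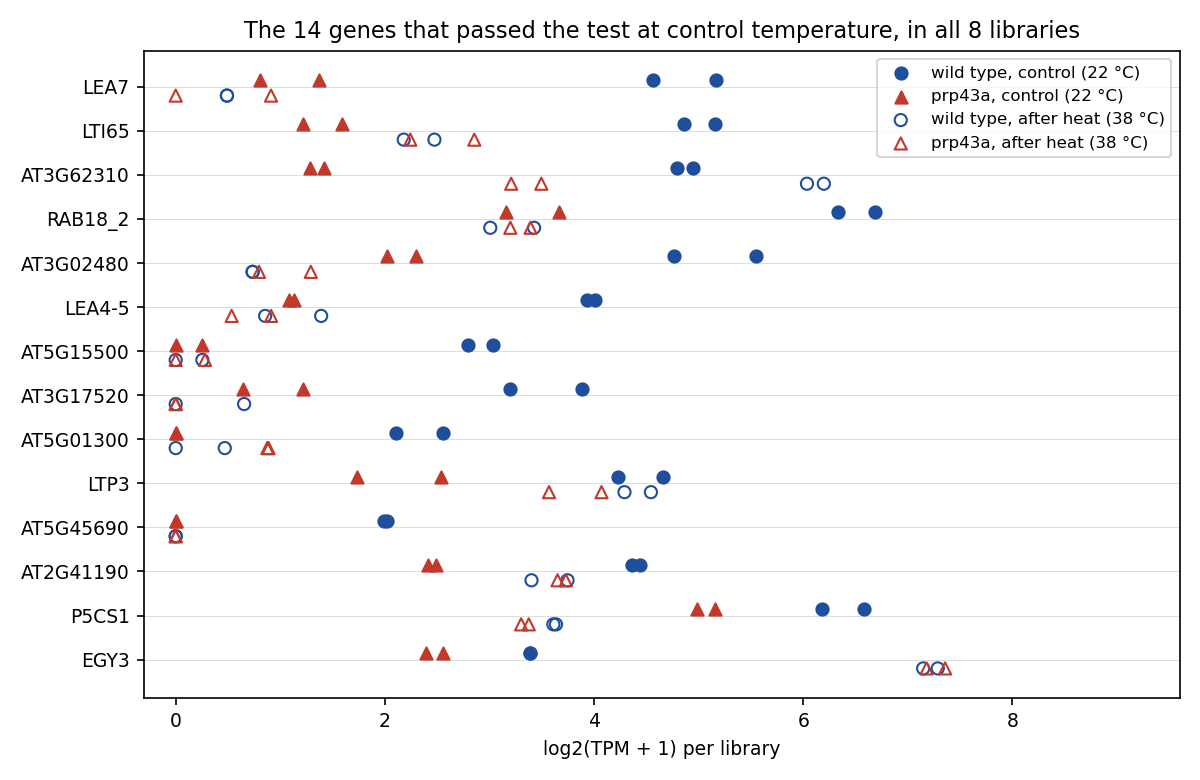
Level on the log2(TPM + 1) scale (x axis) of the 14 genes that fell in prp43a (y axis), with 1 point per library. Circles are wild type and triangles prp43a, filled at 22 °C and open after heat at 38 °C. At 22 °C the prp43a points lie to the left of the wild-type points for each of the 14 genes.

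The sequences of 5 promoters are given because they belong to the LEA and dehydrin genes with the largest falls and to LTI65. They are the 250 bases before the annotated start, on the strand of the gene, from the RefSeq genome TAIR10.1. Capitals mark the abscisic acid response element core ACGTG and the dehydration-responsive element core CCGAC on either strand, so that CACGT and GTCGG are the same motifs read from the other strand, and CACGTG holds overlapping matches of both strands and was counted as 1 site.
LEA7, chr1:19619474-19619723, plus strand: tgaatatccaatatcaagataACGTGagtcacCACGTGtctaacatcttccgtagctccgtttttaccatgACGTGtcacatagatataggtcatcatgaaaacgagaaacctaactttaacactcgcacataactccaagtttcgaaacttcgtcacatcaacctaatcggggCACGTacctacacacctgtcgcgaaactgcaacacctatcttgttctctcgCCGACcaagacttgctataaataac
AT3G02480, chr3:511970-512219, plus strand: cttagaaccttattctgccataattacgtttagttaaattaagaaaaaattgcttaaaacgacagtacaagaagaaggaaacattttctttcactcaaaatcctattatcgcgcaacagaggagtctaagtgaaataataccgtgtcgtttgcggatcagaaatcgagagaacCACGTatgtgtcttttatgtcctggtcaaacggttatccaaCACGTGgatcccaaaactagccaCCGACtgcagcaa
LEA4-5, chr5:2090431-2090680, minus strand: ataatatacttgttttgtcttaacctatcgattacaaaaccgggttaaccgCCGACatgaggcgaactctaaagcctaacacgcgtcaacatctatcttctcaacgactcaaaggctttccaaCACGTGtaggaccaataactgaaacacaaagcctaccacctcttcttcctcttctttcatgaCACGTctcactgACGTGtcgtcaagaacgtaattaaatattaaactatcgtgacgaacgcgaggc
LTI65, chr5:21236771-21237020, plus strand: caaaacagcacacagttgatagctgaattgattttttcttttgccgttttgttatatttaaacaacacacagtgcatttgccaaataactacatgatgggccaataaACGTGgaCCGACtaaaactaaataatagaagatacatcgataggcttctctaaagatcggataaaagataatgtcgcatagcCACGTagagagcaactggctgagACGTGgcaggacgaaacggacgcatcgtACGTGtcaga
RAB18_2, chr5:26519448-26519697, minus strand: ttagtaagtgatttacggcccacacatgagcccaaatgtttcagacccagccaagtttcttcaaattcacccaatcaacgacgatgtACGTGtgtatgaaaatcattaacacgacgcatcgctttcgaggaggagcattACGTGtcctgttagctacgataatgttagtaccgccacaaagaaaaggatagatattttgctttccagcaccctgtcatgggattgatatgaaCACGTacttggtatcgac

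Of the 13 genes that fell other than AT3G62310, 9 (69.2%) held ACGTG in these 250 bases, and all 9 held it at 2 or more separate sites. Over the promoters of 18287 genes of the set, 23.4% held ACGTG and 5.46% held it at 2 or more sites. LEA7, AT5G15500 and LTI65 held 4 sites, LEA4-5, AT5G45690 and RAB18_2 held 3, and AT3G02480, AT3G17520 and AT5G01300 held 2. The motif was not in this window of EGY3, P5CS1, AT2G41190 or LTP3, nor in that of AT3G62310. CCGAC was found in 5 of the 13 (38.5%), against 13.01% of all promoters. Among the LEA and dehydrin genes of the set as a whole, 12 of 17 (70.6%) held ACGTG. So did 6 of 8 iron genes, 7 of 11 clock genes (63.6%), 6 of 11 jasmonate genes (54.5%) and 4 of 7 kinase and ABF genes (57.1%), in which no gene passed the test. A match of these letters is a description of the sequence and shows no binding.

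**Figure D3:**
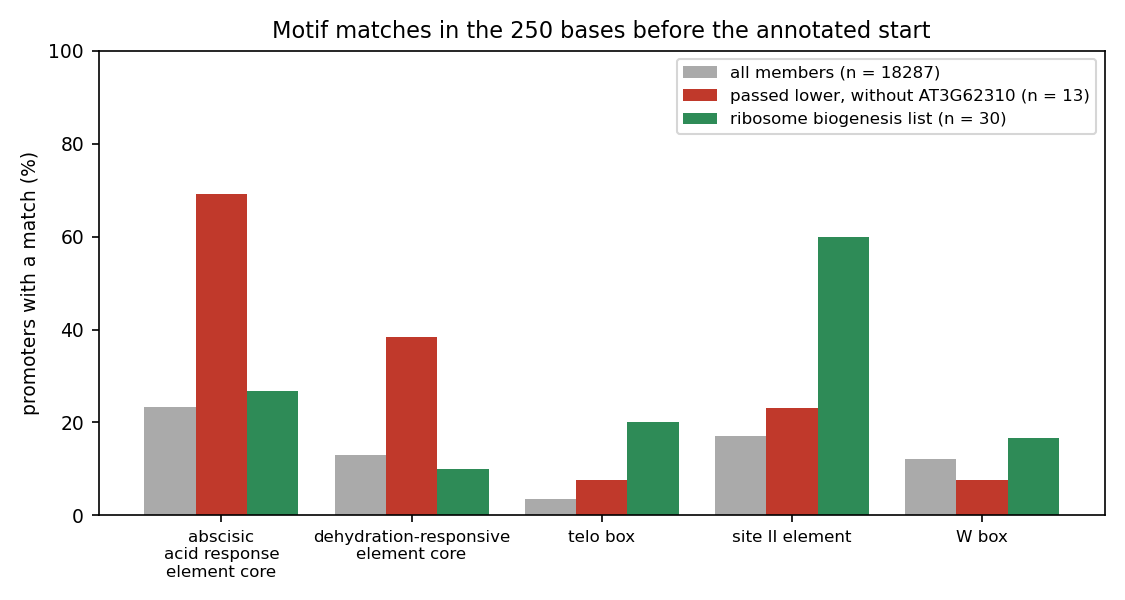
Percent of promoters (250 bases before the start) that hold each motif, on either strand, for all 18287 promoters (grey), the 13 genes that fell other than AT3G62310 (red) and the 30 ribosome biogenesis genes (green). ACGTG was found in 69.2% of the promoters of genes that fell and in 23.4% of all promoters, and the site II element in 60.0% of ribosome biogenesis promoters and 17.1% of all.

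Other genes that abscisic acid or cold induces were mostly lower without passing. The list of 12 genes of this kind in the set includes LTI65 and RAB18_2, described above, so its values partly repeat theirs. RAB18_2 is counted in the LEA and dehydrin list as well. Both fell and none rose. Of the 12, 11 had a log2 fold change below 0, 9 did not overlap and lay lower, and the median was -0.53. The median was -0.40 without wild-type replicate 1 and -0.67 without wild-type replicate 2. The summed level of the listed genes was 1089 and 1027 TPM in wild type and 744 and 668 TPM in prp43a. RD20, a caleosin of lipid bodies, had 21.3 and 17.1 TPM in wild type and 7.07 and 6.87 TPM in prp43a (-1.33, SE 0.26, limma adjusted p = 0.18). COR15A, a chloroplast protein of cold tolerance, had 11.1 and 5.09 TPM against 4.87 and 2.49 TPM (-0.92, limma adjusted p = 0.51). The groups of RD20 were well apart, whereas those of COR15A barely missed each other.

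Upstream in the pathway no gene of hormone synthesis, no receptor and no phosphatase passed the test. Of 10 genes of abscisic acid synthesis, release and breakdown, 7 lay below 0 and the median was -0.06. It was 0.08 and -0.24 without wild-type replicates 1 and 2, and -0.16 and 0.04 without prp43a replicates 1 and 2. ABA1, the zeaxanthin epoxidase, had 473 and 455 TPM in wild type and 402 and 396 TPM in prp43a (-0.22, SE 0.08, limma adjusted p = 0.49). BGLU18, which releases the hormone from its glucose ester, had 82.2 and 62.6 against 57.7 and 52.3 TPM (-0.38, limma adjusted p = 0.47). AAO3, which makes the last step of synthesis, lay slightly higher, with 14.3 and 13.6 against 14.8 and 14.7 TPM (0.07, limma adjusted p = 0.96). NCED3, which cleaves the precursor and is itself induced by drought, had 3.02 and 3.08 TPM in wild type and 0.246 and 1.05 TPM in prp43a (-1.34, limma adjusted p = 0.24); it is below the level of the naming rule and was chosen after its values were seen. Its groups did not overlap, on few reads.

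Of 9 receptor genes, 7 had a log2 fold change above 0 and 2 below, with a median of 0.08, or 0.0069 (5 above 0) without wild-type replicate 1 and 0.05 without prp43a replicate 1. PYL5 had 56.2 and 63.7 TPM in wild type and 64.1 and 89.98 TPM in prp43a (0.34, limma adjusted p = 0.56). All 6 PP2C phosphatase genes of the set had a log2 fold change below 0, 5 of them with no overlap, and none passed; the median was -0.47. HAI1, which drought induces, had 8.79 and 4.87 TPM against 2.42 and 1.89 TPM (-1.27, SE 0.35, limma adjusted p = 0.30). ABI2 had 9.597 and 7.52 against 4.27 and 3.62 TPM (-0.95, limma adjusted p = 0.30), ABI1 37.6 and 27.5 against 22.1 and 22.8 TPM (-0.50, limma adjusted p = 0.43), and HAB1 33.4 and 29.1 against 22.0 and 23.4 TPM (-0.44, limma adjusted p = 0.36). In each of the 4 the groups were apart and wild-type replicate 1 was the highest library, and the median of the 6 was -0.31 without that library and -0.63 without wild-type replicate 2. All 7 kinase and ABF genes of the set also lay below 0, 5 with no overlap, with a median of -0.24, or -0.32 without wild-type replicate 1 and -0.16 without wild-type replicate 2. ABF3 had 43.8 and 37.7 TPM in wild type and 30.8 and 29.2 TPM in prp43a (-0.43, limma adjusted p = 0.39).

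Proline and raffinose accumulate in drying plants. P5CS1, which makes the first step of proline synthesis, fell: it had 94.9 and 71.6 TPM in wild type and 34.7 and 30.6 TPM in prp43a (-1.31, SE 0.15, limma adjusted p = 0.014). The groups were well apart, and no other of 9 proline genes passed; 5 lay above 0 and 4 below, with a median of 0.09 that ran from 0.02 to 0.05 without any 1 of the 4 unstressed libraries. P5CR, which makes the second step, had 62.2 and 72.1 TPM against 72.1 and 75.9 TPM (0.14, limma adjusted p = 0.72). Among 4 galactinol and raffinose genes of the set none passed and the median was -0.03, or -0.33 without wild-type replicate 1, -0.14 without prp43a replicate 1 and -0.08 without prp43a replicate 2. The galactinol synthase gene GolS2, chosen after its values were seen, had 5.50 and 3.17 TPM in wild type and 0.468 and 0.5003 TPM in prp43a (-1.81, SE 0.30, limma adjusted p = 0.094).

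Lipid transfer proteins carry lipids in the cell wall and cuticle. LTP3 fell, with 24.3 and 17.8 TPM in wild type and 4.80 and 2.33 TPM in prp43a (-2.31, SE 0.28, limma adjusted p = 0.020). Its close copy LTP4, which lies next to it, had 6.06 and 17.3 TPM against 0.404 and 0.433 TPM (-3.002, SE 0.46, limma adjusted p = 0.077). The counting could split reads between such copies, so each of the 2 values is uncertain. LTP4 passed in a fit of the genes of the set alone, with the filter at 5 TPM and with a pseudocount of 0.1. LTP3 did not pass with no filter or with no trend. Of 11 genes of the group 7 had a log2 fold change above 0, and the median was 0.11. Without wild-type replicate 2 it was -0.0049, with 5 above 0 and 6 below, and without prp43a replicate 2 it was 0.06. AZI1, of systemic defense, had 154 and 138 TPM in wild type and 209 and 246 TPM in prp43a (0.64, limma adjusted p = 0.41), and its neighbour EARLI1 had 311 and 270 against 366 and 451 TPM (0.49, limma adjusted p = 0.44).

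Another 5 genes that fell stood outside these groups. The amino acid transporter family gene AT2G41190 had 20.7 and 19.6 TPM in wild type and 4.32 and 4.62 TPM in prp43a, with both pairs of replicates close together (-1.95, SE 0.17, limma adjusted p = 0.0030). AT5G15500, an ankyrin repeat protein gene, had 7.21 and 5.92 TPM in wild type and was listed at 0 and at 0.190 TPM in prp43a (limma adjusted p = 0.0061). AT5G01300, of the phosphatidylethanolamine-binding protein family, had 4.90 and 3.31 TPM, from 13 and 9 reads, and was listed at 0 in both prp43a libraries (limma adjusted p = 0.030). AT5G45690, annotated with a domain of unknown function, had 3.05 and 2.98 TPM from 8 reads each and was likewise listed at 0 in both (limma adjusted p = 0.044). It was listed at 0 in every heated library too, so only the unstressed wild type added spread to its test. Neither AT5G01300 nor AT5G45690 passed with a pseudocount of 0.1 or with voom on recovered reads (limma adjusted p of 0.064 and 0.080 with voom). EGY3, a chloroplast protein related to site-2 proteases, had 9.48 and 9.44 TPM against 4.88 and 4.26 TPM, the smallest change of the 14 (-0.91, SE 0.12, limma adjusted p = 0.030).

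How far the calls depended on single libraries differed between these genes. In the 8 fits that each left out 1 of the 8 libraries, AT3G62310, LTI65 and RAB18_2 passed in all 8. LEA7 passed in 6, LEA4-5, AT2G41190 and AT5G15500 in 5, and AT3G02480 in 4. LTP3 passed in 2, P5CS1 and AT5G01300 in 1, and EGY3, AT3G17520 and AT5G45690 in 0. The number of genes called was 6 without wild-type replicate 1, 48 without wild-type replicate 2, 4 without prp43a replicate 1 and 3 without prp43a replicate 2. All 14 kept their direction in every fit that tested them. In a fit of the 4 unstressed libraries alone, limma called 0 genes, against 1827 at an unadjusted p below 0.05.

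After 16 h at 38 °C the 2 abscisic acid reporters were low in both genotypes. RAB18_2 then stood at 7.04 and 9.75 TPM in wild type and 8.19 and 9.50 TPM in prp43a, and LTI65 at 3.53 and 4.55 against 3.73 and 6.23 TPM. For both genes the genotypes overlapped after heat, far below the unstressed wild type. No genotype difference like that at 22 °C remained after heat. The log2 fold change shifted upward from 22 °C to heat by 3.83 for LTI65 (SE 0.37) and by 3.18 for RAB18_2 (SE 0.31). They were the 2 of 19697 genes (0.0102%) that passed limma's test of this shift (adjusted p = 0.013 each). Neither passed when any 1 of the 8 libraries was left out, with adjusted p from 0.063 to 0.34. LEA7 stood at 0.404 and 0.405 TPM in heated wild type and at 0 and 0.881 TPM in heated prp43a. Its upward shift of 3.74 missed the threshold (limma adjusted p = 0.11). EGY3 was high after heat, with 141 and 155 TPM in heated wild type and 163 and 144 TPM in heated prp43a, well above its unstressed levels. The helicase AT3G62310 was low in heated prp43a too, at 10.3 and 8.24 TPM against 64.6 and 72.4 TPM in heated wild type.

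**Figure D4:**
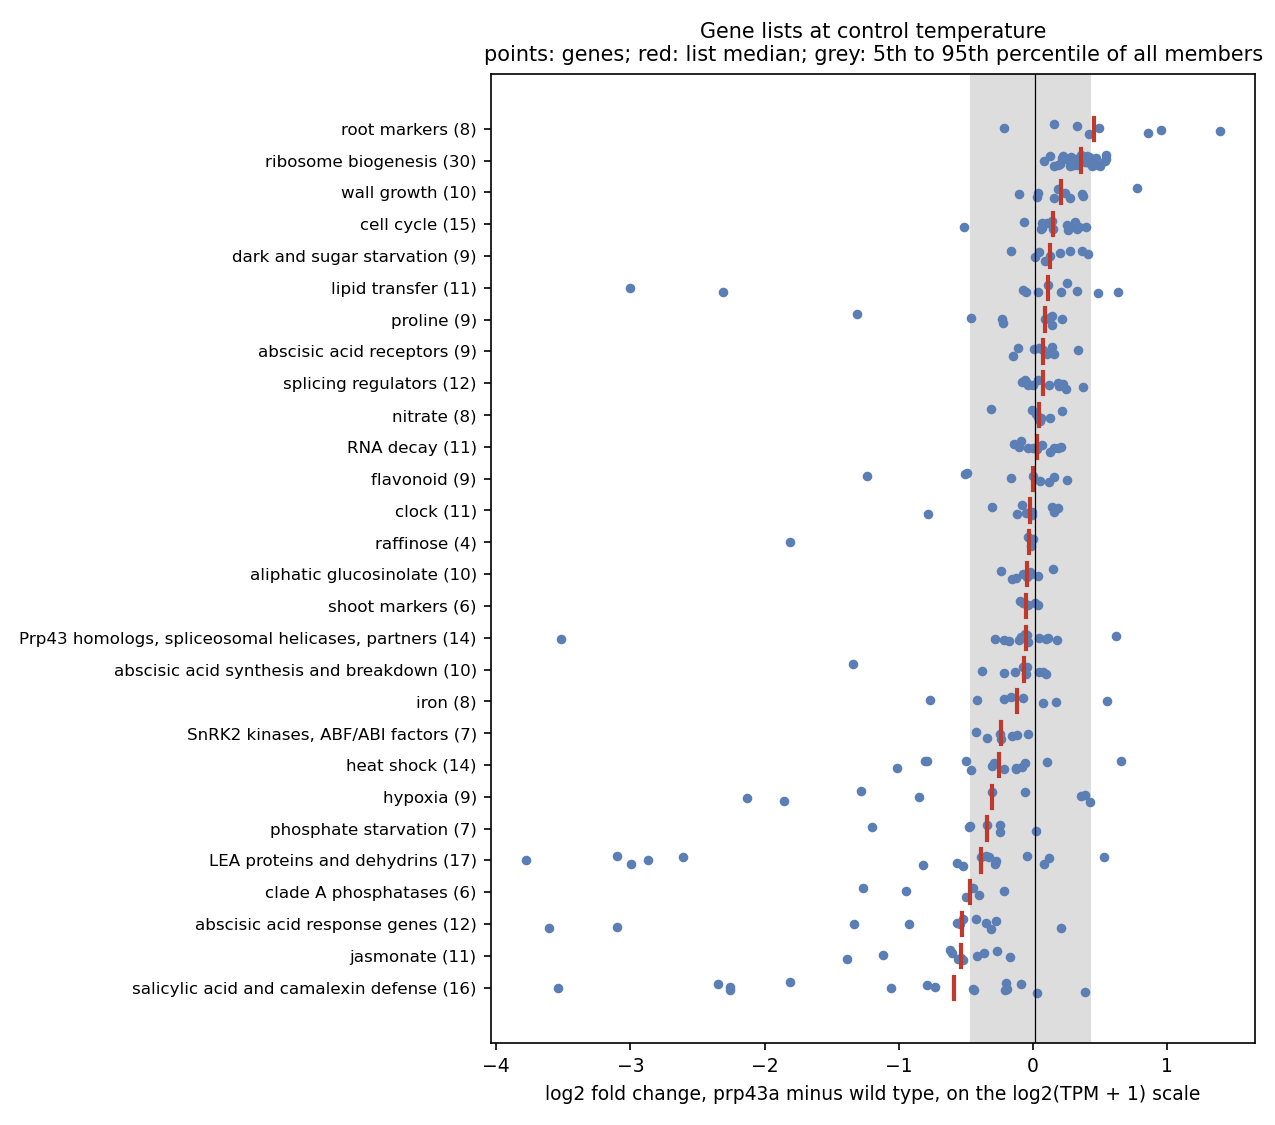
Log2 fold changes, prp43a minus wild type without heat, of the members of each gene list (blue points) with the list's median (red bar) and the number of genes in brackets; the grey band runs from the 5th to the 95th percentile over all 18346 genes. The jasmonate, phosphatase and kinase lists have no gene above 0, and the ribosome biogenesis list has none below it. The 4 raffinose genes also lie below 0, but the highest is at -0.0011 and the median at -0.03. Without wild-type replicate 2, 2 of these 4 lie above 0.

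Most defense genes had lower values in prp43a, and for many of them the wild-type replicates differed from each other. Of 16 salicylic acid and camalexin genes, none passed, 14 had a log2 fold change below 0, 9 with no overlap, and the median was -0.59; it was -0.34 without wild-type replicate 1 and -0.93 without wild-type replicate 2. PR1, the classic marker of salicylic acid, had 26.7 and 24.5 TPM in wild type and 0.372 and 2.79 TPM in prp43a (-3.54, SE 0.70, limma adjusted p = 0.18). There the wild-type libraries were alike and the mutant libraries were apart from them. The camalexin genes were of another kind: PAD3 had 21.0 and 1.18 TPM in wild type and 0.756 and 0.202 TPM in prp43a, CYP71A13 26.2 and 2.11 against 0.674 and 1.20 TPM, and CYP71A12 37.7 and 9.61 against 4.04 and 2.16 TPM (limma adjusted p of 0.47, 0.39 and 0.21). For all 3 wild-type replicate 1 stood far above the other 3 libraries. The berberine-bridge family genes AT1G26390 (15.2 and 4.96 against 0.380 and 1.02 TPM) and AT1G26380 (24.5 and 3.63 against 1.83 and 1.57 TPM) likewise had wild-type replicate 1 highest and wild-type replicate 2 next, as did SAG13 with 31.0 and 12.8 against 2.21 and 4.72 TPM. CYP71A12 with CYP71A13, and AT1G26380 with AT1G26390, are close copies, so the split of reads within each pair is uncertain.

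Jasmonate genes gave a similar picture at smaller size. All 11 in the set had a log2 fold change below 0, 8 with no overlap, none passed, and the median was -0.54, or -0.35 without wild-type replicate 1 and -0.72 without wild-type replicate 2. AOS, which makes the first committed step of the hormone, had 134 and 106 TPM in wild type and 79.8 and 81.3 TPM in prp43a (-0.56, limma adjusted p = 0.47). AOC1, the next enzyme, had 83.5 and 55.9 against 44.0 and 45.2 TPM (-0.60, limma adjusted p = 0.48). VSP2, a storage protein that jasmonate induces, had 32.2 and 10.9 against 7.31 and 5.92 TPM (-1.39, limma adjusted p = 0.45). In each, wild-type replicate 1 was highest and wild-type replicate 2 lay between it and the mutant libraries.

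Genes of oxygen shortage separated wild-type replicate 1 from the other 3 libraries more than they separated the genotypes. The summed level of the list was 241 TPM in wild-type replicate 1, 98.1 in wild-type replicate 2, and 98.4 and 103 in the prp43a replicates. Of 9 genes none passed, 6 lay below 0 and 3 above, and the median was -0.31, or -0.09 without wild-type replicate 1 and -0.52 without wild-type replicate 2. ADH1, alcohol dehydrogenase, had 76.5 and 18.01 TPM in wild type and 17.9 and 12.2 TPM in prp43a (limma adjusted p = 0.52). The sucrose synthase gene SUS4 had 18.9 and 7.36 against 3.98 and 0.730 TPM (limma adjusted p = 0.24), and the pyruvate decarboxylase family gene AT4G33070 had 23.4 and 6.01 against 4.70 and 1.30 TPM (limma adjusted p = 0.33). Heat shock genes at 22 °C had a median of -0.25, with 12 of 14 below 0 and none past the test. The groups did not overlap for 4 of the lower genes and for both of the 2 higher ones. That median was 0.03 and -0.48 without wild-type replicates 1 and 2 and -0.10 without prp43a replicate 2. HSP21 did not pass, but it was called higher with a pseudocount of 0.1 and with quantile normalization. AT2G29500, a small heat shock protein gene, had 19.0 and 10.9 TPM against 8.90 and 7.14 TPM (-0.79, limma adjusted p = 0.32), and the small heat shock genes are close copies whose reads the counting could split. The part of that library's state in the differences of the genotypes was not tested beyond these values without it.

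The genes of ribosome biogenesis lay in the other direction, the process that makes ribosomes in the nucleolus. All 30 had a log2 fold change above 0, and for 26 both prp43a libraries lay above both wild-type libraries (22.4% over all genes). The list was written with earlier results of these data known, so these counts are no test. None of the 30 genes passed the test over all genes. Their median was 0.36 beside 0.02 over all genes, and it was 0.27, 0.50, 0.34 and 0.37 without wild-type replicates 1 and 2 and prp43a replicates 1 and 2, with 28 of the 30 above 0 in the first of these. Their summed level was 1155 and 1309 TPM in wild type and 1571 and 1527 TPM in prp43a. FIB2, fibrillarin, which methylates ribosomal RNA, had 37.5 and 45.5 TPM in wild type and 60.9 and 60.9 TPM in prp43a (0.55, SE 0.12, limma adjusted p = 0.22). TOZ, a protein of the small-subunit processome, had 9.85 and 9.38 against 14.3 and 14.7 TPM (0.55, SE 0.12, limma adjusted p = 0.22). EDA25, of the Noc family, had 17.4 and 20.2 against 28.4 and 26.9 TPM (0.54, limma adjusted p = 0.21), and the helicase gene AT5G60990 had 15.7 and 15.1 against 23.4 and 20.9 TPM (0.50, limma adjusted p = 0.22). In each of these 4 both prp43a libraries lay above both wild-type libraries. After heat the median of the list was -0.004 between the genotypes.

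The site II element TGGGCC was found in 18 of these 30 promoters (60.0%) within the 250 bases before the start, against 17.1% of all promoters. Lists whose medians lay nearer to 0 or below it had like shares, with 10 of 14 helicases and partners (71.4%), 7 of 12 splicing regulators (58.3%) and 8 of 14 heat shock genes (57.1%). The telo box was found in 6 (3.52% of all promoters), and in 16 (53.3%, against 5.52% of all) when the 50 bases after the start were included. The W box core TTGACC was in 5 of them (16.7%, against 12.02%). Both strands were searched, and none of these motifs holds another.

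Genes that act on RNA had medians close to that of all genes. Of 12 regulators of splicing, 8 lay above 0, 6 with no overlap, none passed, and the median was 0.08. The SR protein gene SCL30A had 22.8 and 28.3 TPM in wild type and 31.5 and 34.9 TPM in prp43a (0.37, limma adjusted p = 0.60), and RS41 had 44.4 and 42.0 against 51.8 and 51.2 TPM (0.25, limma adjusted p = 0.52). SR45 had 23.3 and 23.1 against 27.5 and 25.97 TPM (0.20, limma adjusted p = 0.67). Of 11 genes of RNA decay, 7 lay above 0 and 4 below, with a median of 0.03, or -0.03 both without wild-type replicate 2 and without prp43a replicate 1. The nuclear exoribonuclease gene XRN3 had 33.9 and 35.8 TPM against 40.2 and 41.0 TPM (0.21, limma adjusted p = 0.58), while the exosome helicase gene HEN2 had 14.4 and 15.2 against 12.8 and 13.8 TPM (-0.14, limma adjusted p = 0.84).

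The difference between the genotypes varied little with the number of introns. Genes without introns had a median log2 fold change of -0.01 (n = 2702), those with 1 intron 0.00 (n = 2679), with 2 to 4 introns 0.01 (n = 5185), with 5 to 9 introns 0.03 (n = 4729) and with 10 or more introns 0.04 (n = 2993). Across 18288 genes the Spearman correlation of the log2 fold change with the number of introns was 0.07 and with the exon length -0.0029, as a description across genes of the same 4 libraries. Shifts of that size also arose between replicates of 1 genotype: wild-type replicate 2 minus replicate 1 ran from -0.03 in genes without introns to 0.01 in those with 10 or more, and prp43a replicate 2 minus replicate 1 from -0.01 to 0.01. Of the 14 genes that fell, 2 had no intron and 1, P5CS1, had 10 or more. These are levels of whole genes, and retained introns were not measured.

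**Figure D5:**
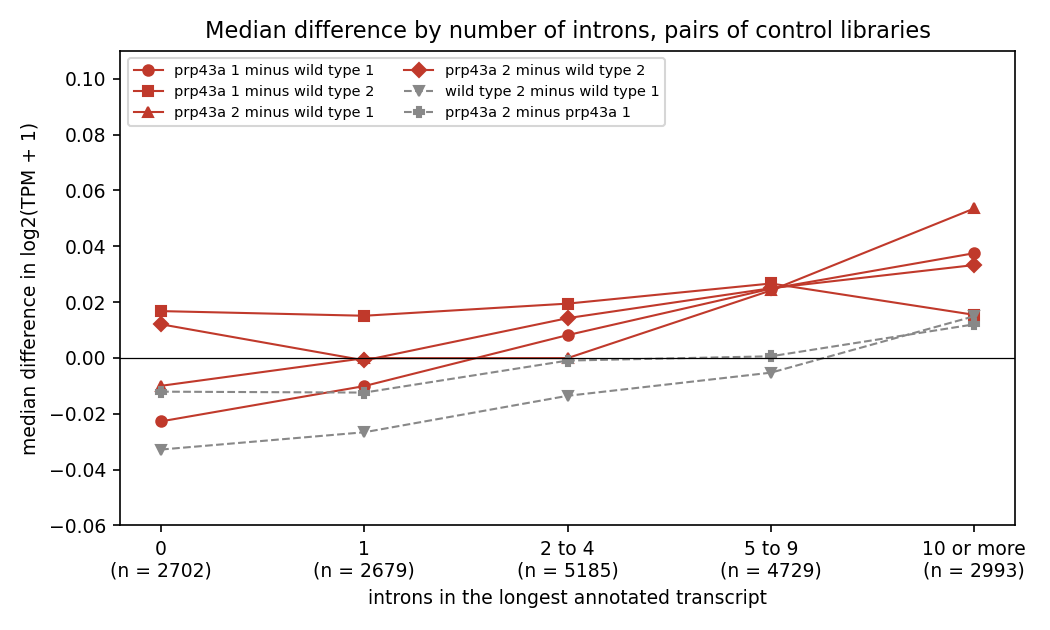
Median difference in log2(TPM + 1) (y axis) by number of introns (x axis), 1 line per pair of unstressed libraries. Solid red lines are prp43a minus wild type and dashed grey lines are replicates of 1 genotype; the red lines lie between -0.02 and 0.05, and the line of the wild-type replicates runs from -0.03 to 0.01.

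Most of the listed genes of the cell cycle and of wall loosening had values above 0. Of 15 cell cycle genes, 13 lay above 0, 7 with no overlap, none passed, and the median was 0.15. It was 0.30 (11 above 0) without prp43a replicate 1 and 0.18 (10 above 0) without prp43a replicate 2. MCM3, of the replicative helicase, had 11.2 and 11.7 TPM in wild type and 14.6 and 14.3 TPM in prp43a (0.31, limma adjusted p = 0.68), and the B-type cyclin gene CYCB2;3 had 5.71 and 6.10 against 8.68 and 7.498 TPM (0.39, limma adjusted p = 0.73). Of 10 genes of wall loosening, 9 lay above 0, 5 with no overlap, with a median of 0.21 and none past the test. The xyloglucan endotransglycosylase gene XTR6 had 17.0 and 17.6 TPM against 23.2 and 39.5 TPM (0.78, limma adjusted p = 0.42), and XTH4 had 342 and 355 against 409 and 497 TPM (0.37, limma adjusted p = 0.53). A separate list, of darkness and sugar starvation, had 8 of 9 genes above 0 and a median of 0.13. For 2 of these 9 both prp43a libraries lay above both wild-type libraries, beside 22.4% of all genes. The median was 0.23 and 0.013 without wild-type replicates 1 and 2, and 0.24 and 0.03 without prp43a replicates 1 and 2, with 5 above 0 and 4 below in the fits without either replicate 2. DIN10, of the raffinose synthase family, had 300.5 and 312 TPM against 347 and 448 TPM (0.36, limma adjusted p = 0.36).

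Phosphate starvation genes lay lower: of 7 in the set 6 were below 0, 5 with no overlap, none passed, and the median was -0.34, or -0.45 without wild-type replicate 1 and -0.20 without wild-type replicate 2. PAP17, a purple acid phosphatase, had 24.3 and 22.6 TPM in wild type and 9.52 and 9.74 TPM in prp43a, with both pairs of replicates close together (-1.20, SE 0.21, limma adjusted p = 0.11). PHT1;4, a phosphate transporter, had 17.96 and 17.3 against 12.3 and 12.6 TPM (-0.48, limma adjusted p = 0.45), and SQD2, which makes sulfolipid, 46.7 and 48.8 against 38.7 and 36.5 TPM (-0.34, limma adjusted p = 0.36). Of 8 iron genes 5 lay below 0, with a median of -0.12, or 0.26 without wild-type replicate 2, -0.18 without wild-type replicate 1, -0.26 without prp43a replicate 1 and -0.01 without prp43a replicate 2. The ferritin gene FER1 had 764 and 599 TPM against 480 and 536 TPM (-0.42, limma adjusted p = 0.35). Of 8 nitrate genes 6 lay above 0 (median 0.04), of 10 aliphatic glucosinolate genes 2 (median -0.04), of 11 clock genes 3 (median -0.02) and of 9 flavonoid genes 5 (median 0.00), with none past the test in these 4 groups. Without single unstressed libraries these medians ran from 0.03 to 0.07 for nitrate, from -0.15 (without wild-type replicate 2) to 0.05 (without wild-type replicate 1) for glucosinolate, from -0.09 to -0.03 for clock and from -0.16 (without prp43a replicate 1) to 0.0019 for flavonoid genes. Among the clock genes PRR9, a daytime repressor, was the lowest of those named, with 22.5 and 22.4 TPM against 17.9 and 18.1 TPM (-0.30, limma adjusted p = 0.71).

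Markers of organs were compared because whole seedlings were sampled, in which fewer cells of a type and less RNA per cell cannot be told apart. Of 6 shoot genes 2 lay above 0 and 4 below, the median was -0.05, or 0.01 without prp43a replicate 2, and their summed level was 61049 and 59033 TPM in wild type and 59779 and 58363 TPM in prp43a. Of 8 root genes in the set 7 lay above 0, 4 with no overlap, the median was 0.46, and none passed. That median was 0.08 without prp43a replicate 1 and 0.94 without prp43a replicate 2. The abundant root gene PYK10 had 1075 and 1109 TPM in wild type and 1298 and 1147 TPM in prp43a (0.16, limma adjusted p = 0.82), and BGLU21 had 7.59 and 5.64 against 19.6 and 9.39 TPM (0.95, limma adjusted p = 0.46). For both of these the mutant libraries lay above the wild type, with prp43a replicate 1 the highest. None of the 4 seed genes reached the set: SESA1, OLEO1 and CRU3 were listed at 0 in all 4 libraries. The part of root RNA in the other differences was not tested.

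Among genes that did not pass, the largest differences upward included AGP14 and 2 genes of 1 protease inhibitor and lipid transfer superfamily. AGP14, an arabinogalactan protein of the cell surface, had 2.15 and 2.80 TPM in wild type and 14.7 and 10.7 TPM in prp43a (1.98, SE 0.37, limma adjusted p = 0.14). AT5G46900 and AT4G12520, of that superfamily, had 1.42 and 2.78 against 12.9 and 8.07 TPM and 3.27 and 4.39 against 12.999 and 9.40 TPM (limma adjusted p of 0.11 and 0.19). For all 3 both mutant libraries lay well above both wild-type libraries, with prp43a replicate 1 the highest, as it was for the root markers. AT5G46900 was called higher with a pseudocount of 5. AT1G75335, annotated as nucleolar-like, had 6.99 and 6.06 against 16.0 and 12.4 TPM (1.01, SE 0.16, limma adjusted p = 0.077). It was called higher with the filter at 5 TPM. AT4G15680, a thioredoxin family gene, had 13.8 and 19.99 against 34.5 and 33.3 TPM (0.98, SE 0.16, limma adjusted p = 0.094). The plastid gene rpl14, of a ribosomal protein, had 5.84 and 1.90 against 12.7 and 16.5 TPM (limma adjusted p = 0.20); plastid transcripts carry few poly(A) tails, so the selection of mRNA captures them poorly. Downward, beside those given above, AT3G18250, annotated as a membrane lipoprotein, had 19.6 and 11.5 TPM in wild type and 1.83 and 2.93 TPM in prp43a (-2.26, SE 0.39, limma adjusted p = 0.11), and AT4G39675 had 35.4 and 15.03 TPM against 4.32 TPM and a listing at 0 (limma adjusted p = 0.20).

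Of the 18346 genes of the set, 18 were listed at 0 in both prp43a libraries with at least 1 TPM in both wild-type libraries, and 6 the other way round. Most rested on a handful of reads, some on 1 read in each library, and the difference between these counts was not tested. Among the 18, those with at least 7 reads in each wild-type library, beside AT5G01300 and AT5G45690, were EXO70H2, of the exocyst, with 2.25 and 1.35 TPM from 13 and 8 reads, and the heat shock factor gene HSFA6A, with 2.38 and 2.65 TPM from 7 and 8 reads. Among the 6, AT2G47540 had 4.34 and 1.86 TPM in prp43a from 10 and 4 reads. No fold change is given against a group at 0, and these 3 genes were chosen for their read numbers after the values were seen.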

How the data were processed

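Messenger RNA was measured in 8 libraries, 2 per genotype and condition, grouped by their titles. The authors deposited 1 table of TPM values for 27655 genes, per the file headers. The submitters' processing notes name the build TAIR10. For the aligner, counter, annotation and strand setting, the names were not given in the sources used here. A stranded mRNA kit and paired 75 bp reads on a MiSeq were used, per the labels' protocols. TPM values are shares, so a rise of some genes lowers the others.

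Exon lengths from the TAIR10.1 annotation turned 99.2% of 126841 values of up to 200 reads into whole numbers within 0.05, which gave the depths; TPM itself keeps no depth. Genes with at least 1 TPM in at least 2 of the 8 libraries (19697) entered a limma 3.58.1 fit (R 4.3.3) of log2(TPM + 1), with a mean-variance trend, 1 mean per group and 4 residual degrees of freedom. P-values were Benjamini-Hochberg adjusted over these genes and called below 0.05. Sequences and motifs were read from the RefSeq genome with Python 3.11.15.

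The set of genes, the 29 gene lists, the rule for named genes and the alternatives were chosen with earlier results of these data known, so lists are described without a test. Named genes were the 14 called; the 12 highest and 12 lowest others that averaged 10 TPM or more in 1 group without overlap; up to 4 genes of each list with the largest difference, at least 5 TPM and no overlap; and 4 fixed genes (AT3G62310, AT2G47250, STIPL1 and ILP1_2). The alternatives were other pseudocounts, filters, scalings and units, no trend, a replicate block, and leaving out each library.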

Additional observations from a re-analysis of the deposited data

Results flagged for a closer look

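The genotype difference of LTI65 at 22 °C differed from that after heat by 3.83 on the log2(TPM + 1) scale (SE 0.37, limma interaction test, adjusted p = 0.013), and that of RAB18_2 by 3.18 (SE 0.31, adjusted p = 0.013). Both genes fell in prp43a at 22 °C, with both prp43a libraries below both wild-type libraries, and had overlapping genotypes after heat. The test did not pass for either gene with the replicate block (adjusted p = 0.15), with no filter (0.12), with no trend (0.053 for LTI65 and 0.056 for RAB18_2), with a pseudocount of 0.1 (0.087) or without any 1 of the 8 libraries (from 0.063 to 0.34).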

How the results depend on the processing

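The number of genes called, 14 in all, was 0 in a fit of the 4 control libraries alone (limma; 1827 genes at an unadjusted p below 0.05) and ran from 3 to 48 when 1 library was left out, of which 3 to 43 were lower in prp43a. Under the other settings with all libraries it ran from 10 to 21: 15 with the filter at 5 TPM (1 higher), 16 with the set of genes alone, 18 with no filter (3 higher), 21 with no trend (6 higher), 21 with a pseudocount of 0.1 (2 higher), 18 with a pseudocount of 5 (2 higher), 16 with quantile normalization (1 higher) and 13 with voom on recovered reads (2 higher, AT2G47250 and AT4G22517). Without wild-type control replicates 1 and 2, 1 and 5 genes were called higher. Deviations of libraries with the same replicate number were hardly correlated across genes (0.02 in control and -0.01 after heat). Such a correlation cannot show whether these libraries were grown or processed together. A fit with the replicate block called 10 genes, 9 of them shared. AT3G62310, LTI65 and RAB18_2 were called in 18 of 19 alternatives. Of 99 named genes that were not called, 13 were called under some alternative and 4 changed sign. These were NIR1 (-0.00353) and CAB2 (0.036) with quantile normalization, STIPL1 without prp43a control replicate 1 (-0.047; from there to 0.14 with single libraries left out), and ILP1_2 without wild-type control replicate 2 (0.23) or prp43a control replicate 1 (0.066; from -0.35 to 0.23 with single libraries left out). The difference of the genotype contrast of AT3G62310, heat minus control, was -0.026 with a pseudocount of 5. The cause of these changes was not tested. Depth limits genes of a few TPM, which rest on few reads.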
